A study of Mus musculus with 12 samples.

Results

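The genes described here are 10 surface markers that are used to recognise progenitor and stromal cells: Ly6a, Cd34, Thy1, Cd44, Eng, Alcam, Vcam1, Cd9, Cd81 and Nt5e. They were chosen by name, without reference to a threshold, out of the 21729 genes in the table, and all 10 had a row. Their transcripts were followed over all 12 cells, together with the question of which of them occurred in the same cell. The cells were cultured cardiac progenitor cells (CPCs), obtained from hearts of FVB mice that the labels give as female and 12 weeks old. Non-myocytes were depleted of blood lineages and sorted with magnetic beads for c-Kit, and per the methods the CPCs of a pair of hearts were pooled. The sorted cells grew attached to gelatin in serum with insulin, transferrin, selenium, leukemia inhibitory factor, basic fibroblast growth factor, epidermal growth factor and B27 and N2 supplements, and were used after 5 passages. All 12 cells shared this treatment and formed 1 group. No cell was tied to an animal or a dish, so the group counts as 1 sample, cells are not replicates, and all spreads below describe these 12 cells with no test.

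Surface proteins of this kind are read by antibodies when progenitor and stromal cells are sorted, and each has a function of its own. Sca-1, the product of Ly6a, Thy1 (CD90) and the ecto-5'-nucleotidase Nt5e (CD73) are tied to the outer membrane by a glycolipid anchor. Cd34 is a sialomucin found on blood progenitors, vessel lining and interstitial cells, and Cd44 is the main receptor for hyaluronan. Endoglin (Eng, CD105) is a co-receptor for ligands of the TGF-beta family, Alcam (CD166) and Vcam1 are adhesion molecules of the immunoglobulin superfamily, and Cd9 and Cd81 are tetraspanins that organise other membrane proteins. Thy1, Cd44, Eng and Nt5e are in common use as positive markers of mesenchymal stromal cells, and Sca-1 has been used to isolate cells from the mouse heart. The values below are messenger RNA and not protein at the surface.

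The total count per cell ran from 3453708 to 5690184, and counts are given scaled to a total of 1000000 in each cell (CPM). A count of 0 was taken to allow up to 3 counts, or 0.527 to 0.869 CPM according to the cell. The reads carry no molecular identifiers, so error other than that of counting is in neither this floor nor the intervals given later. Cell CPC10 stood apart from the rest, with a median Pearson r to the other cells of 0.796. CPC3 was next at 0.846, close to CPC9 at 0.854, and the other cells were at 0.873 or more. Values without CPC3 and CPC10 are given beside the results, a choice made with earlier results of these data known, although this measure does not separate CPC3 from CPC9. The summed level of 9 endothelial markers was 9457 CPM in CPC10, where 7 of the 9 were at 10 CPM or more, and 0.629 to 58.3 CPM in the other cells; Cldn5 and Vwf were at 0 in every cell. CPC3 had the highest sum of 8 haematopoietic markers, at 158 CPM with 3 of the 8 at 10 CPM or more and with Ptprc, Cd14, Itgam and Cd3e among those at 0, against 2.81 to 76.3 CPM in the other cells. The 7 fibroblast markers summed to 188 CPM in CPC10, of which Pdgfra gave 175 CPM, and to 535 to 6333 CPM in the others; Dcn, Lum and Tcf21 were together at 0 in CPC10 and 6 other cells. The 6 mural markers summed to 3726 CPM in CPC11, with 2 of the 6 at 10 CPM or more, Acta2 at 3668 CPM and Rgs5, Cspg4, Myh11 and Notch3 at 0, and to 13.5 to 172 CPM in the other cells. Kit, which encodes the receptor c-Kit on which the cells had been sorted, had no count in 11 cells and 21 counts (3.94 CPM) in CPC10. The sum of 4 genes of the Y chromosome was above 0 in all 12 cells (9.76 CPM in CPC3 and 63.7 to 267 CPM in the others), which goes against the labelled sex of the mice.

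Of the 10 markers, 8 were counted in every cell, where 35.3% of all genes were. At a level of 10 CPM, which is the level called present here, 7 of the 10 were found in every cell, against 21.5% of all genes. Ly6a fell short of it in 1 cell only, while Thy1 reached it in 2 cells and Nt5e in 1 cell. The summed level of the 10 markers ran from 2126 CPM in CPC9 to 6156 CPM in CPC3, with a median of 3265 CPM.

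**Figure D1:**
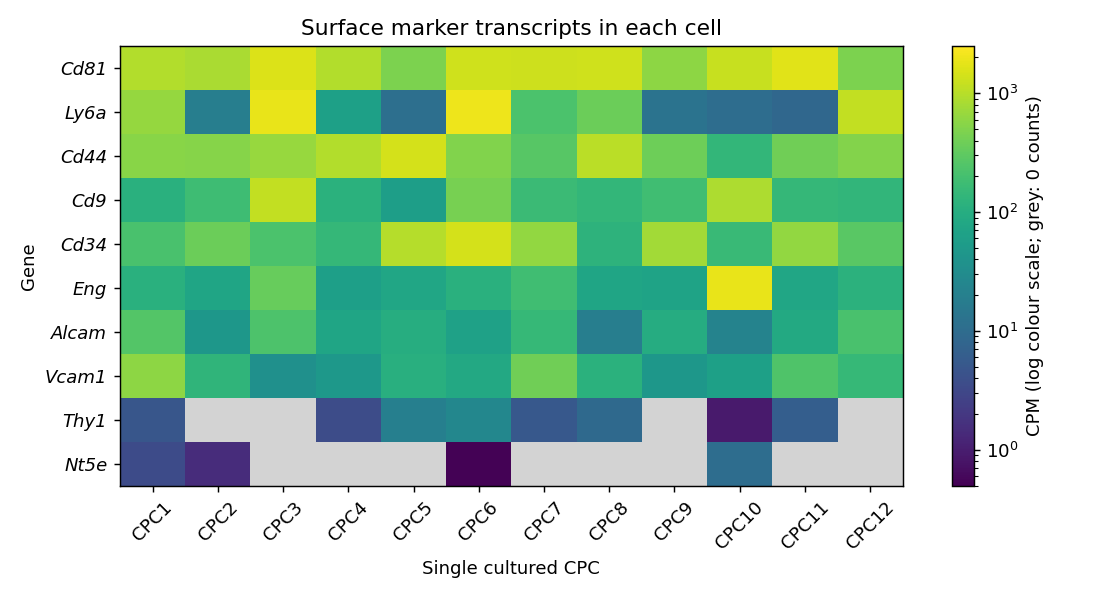
Level of each surface marker (rows) in each cell (columns) in CPM on a logarithmic colour scale, with grey for 0 counts. Cd81 stays between 461 and 1687 CPM, Ly6a runs from 8.48 to 2023 CPM, Eng peaks at 1911 CPM in CPC10, and Thy1 and Nt5e have cells without a count.

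Levels of different genes were compared per kilobase of annotated exon. By the median over cells, the order in CPM per kilobase was Cd81 (376), Ly6a (120), Cd44 (77.2), Cd9 (76.7), Cd34 (44.9), Eng (23.4), Alcam (13.1), Vcam1 (12.5), Thy1 (1.42) and Nt5e (0). No marker led in every cell on this scale, where Cd81 was the highest of the 10 in CPC2, CPC4, CPC7, CPC8, CPC9 and CPC11, Ly6a in CPC1, CPC3, CPC6 and CPC12, Cd44 in CPC5 and Eng in CPC10. Most neighbours in this order differed by less than the spread of their difference between cells. The mean log2 difference between neighbours exceeded its SD over cells for 1 of the 9 neighbouring pairs, Vcam1 over Thy1 (2.66 ± 1.43, SD, 12 cells, higher in 12 of 12). Cd81 over Ly6a came to 1.81 ± 3.01 on this log2 scale, higher in 8 of 12 cells, and Alcam and Vcam1 changed places from cell to cell (-0.10 ± 1.32, Alcam higher in 5 of 12). Cd44 over Cd9 had a mean against the order of the medians (-0.37 ± 1.87, Cd44 higher in 5 of 12). Eng over Alcam was 1.33 ± 1.89, higher in 10 of 12 cells. The order depends on the length used: 5 of the 10 genes kept their place with the length of the longest transcript, and 4 when levels were not divided by length.

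**Figure D2:**
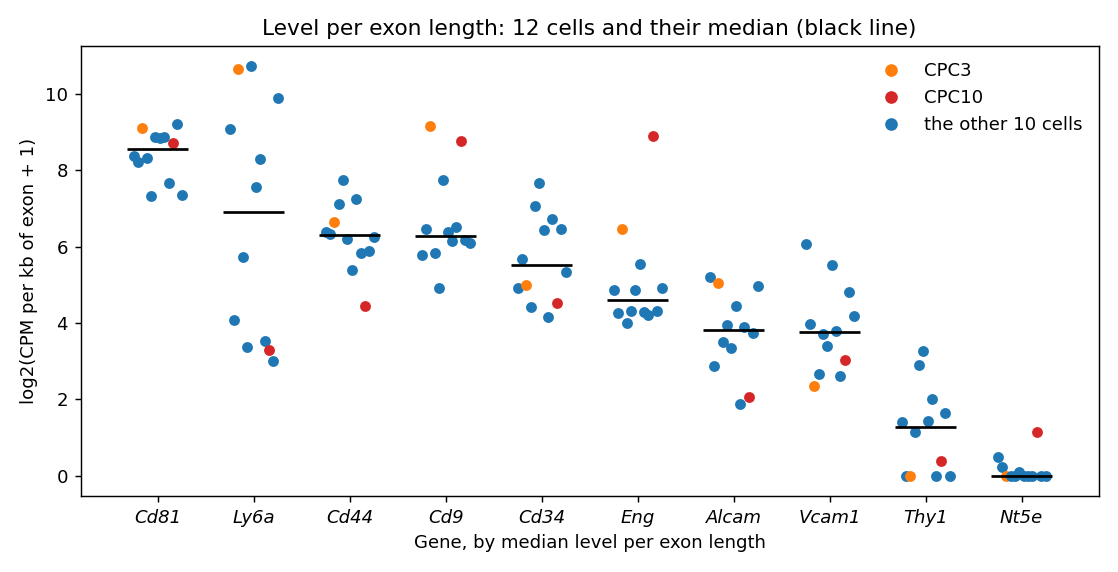
Level of each surface marker in log2(CPM per kilobase of exon + 1), 1 point per cell with the median as a black line, CPC3 in orange and CPC10 in red. The points of Ly6a span the widest range of the 8 markers that were counted in every cell, and the median falls from 376 CPM per kilobase for Cd81 to 0 for Nt5e.

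Most of the markers had a wider range between cells than the median gene at 100 CPM or more. Of 2150 genes that were counted in every cell at a mean of 100 CPM or more, 13.7% had a highest cell at 10 times the lowest or above, and 7 of the 8 markers among them did, all but Cd81. This comparison was chosen after the values had been seen. The median ratio of the highest to the lowest cell was 14.8 in these 8 markers and 3.71 in the 2150 genes, and the median coefficient of variation was 0.912 and 0.379. Without CPC3 and CPC10 the share was 8.88% of the 2150 genes and 4 of the 8 markers, namely Ly6a, Cd34, Alcam and Vcam1. With CPC10 alone left out, the ratio was 5.74 for Eng and 5.24 for Cd44, which also fell under 10 without CPC5 (7.23). Cd9 stayed over 10 with any 1 cell left out (10.6 without CPC5) and was at 7.34 without CPC3 and CPC10 together. Cd34 passed under 10 without CPC6 (7.87) or CPC8 (9.94).

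Among the 3 genes with a glycolipid anchor, only Ly6a was counted in every cell. Ly6a (chromosome 15, 74994877 to 74998031, minus strand, mm10) had a lowest level of 8.48 CPM in CPC11, a median of 144 CPM and a highest level of 2023 CPM in CPC6, a ratio of 239. The highest levels were in CPC6, CPC3 (1913 CPM), CPC12 (1136 CPM) and CPC1 (644.5 CPM), followed by CPC8 (373 CPM) and CPC7 (226 CPM). CPC4 lay between, at 62.8 CPM, and 5 cells (CPC2, CPC9, CPC5, CPC10 and CPC11) had 19.0 CPM or less. The median lay in the gap between these cells, and leaving out any 1 cell moved it to 62.8 CPM (without CPC1, CPC3, CPC6, CPC7, CPC8 or CPC12) or to 226 CPM (without any of the others). The low cells were well above the counting floor. CPC11 had 47 counts, with an exact Poisson interval of 34.5 to 62.5 counts, and CPC6 had 7614 counts. CPC11 was the deeper library of the 2, with a total of 5542016 counts against 3764196 in CPC6. Neither CPC3 nor CPC10 set the range, as CPC3 was among the high cells, CPC10 among the low ones, and the ratio was 239 without them too. CPC11, the cell lowest in Ly6a, was also the cell with the high mural sum, and the part of that in its Ly6a level was not tested. Ly6a was at 10 CPM or more in 11 of 12 cells (91.7%, exact binomial interval 61.5 to 99.8%), at 50 CPM or more in 7 and at 100 CPM or more in 6. The binomial intervals here and below take cells as independent draws, which the labels do not show. They do not extend to other animals or cultures.

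Thy1 (chromosome 9, 44043384 to 44048579, plus strand), a marker of fibroblasts, neurons and T cells of the mouse, was low throughout. It was counted in 8 of 12 cells (66.7%, exact binomial interval 34.9 to 90.1%) with a median of 4.26 CPM, and the same number of cells had it after thinning to equal depth. The highest cells were CPC6 at 25.8 CPM (97 counts) and CPC5 at 19.5 CPM (98 counts), the only cells at 10 CPM or more (16.7%, 2.09 to 48.4%). CPC8 lay just under that level at 9.09 CPM. CPC2, CPC3, CPC9 and CPC12 had no count, and CPC10 had 5 counts. Among genes of proteins that bind Thy1, the integrin subunit Itgav ran from 67.1 to 317 CPM with a median of 175 CPM, Itgb3 was counted in 9 cells with its highest level of 142 CPM in CPC10, and Itgax was at 0 in every cell.

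Nt5e (chromosome 9, 88327197 to 88372092, plus strand), which makes adenosine from AMP outside the cell, was counted in 4 of 12 cells (33.3%, exact binomial interval 9.92 to 65.1%). CPC10 had 56 counts (10.5 CPM), CPC1 12 counts (3.47 CPM), CPC2 6 counts (1.48 CPM) and CPC6 2 counts. The other 8 cells were at 0. Of these 4 cells, CPC1, CPC6 and CPC2 held the most genes with a count (11950, 11876 and 11702), while CPC10 held 10057, and the part that detection played was not tested. Of 11 other genes that help make, use, move or sense adenosine, 2 were at 10 CPM or more in every cell, where 21.5% of all genes were. These were adenosine kinase Adk (150 to 839 CPM, median 311 CPM) and the transporter Slc29a1. Slc29a1 ran from 46.4 CPM to 1480 CPM in CPC10, and its next cell was at 307 CPM. Entpd1, which makes the AMP that Nt5e uses from ATP and ADP, was likewise at 910 CPM in CPC10 and at 30.5 CPM or less elsewhere. The receptors Adora1, Adora2a and Adora3 were at 0 in every cell, and Adora2b was counted in 7 cells, up to 27.9 CPM in CPC3. Nt5e, Entpd1 and Slc29a1 were thus at their highest in CPC10, the cell with the endothelial markers. Of the 11 other genes, 2 were highest there. Adk was at 216 CPM in CPC10, under its median, and Enpp1, Alpl and Adora2b were at 0 in that cell. The part of the endothelial markers in these levels was not tested.

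Cd34 (chromosome 1, 194938819 to 194961279, plus strand) was at 10 CPM or more in every cell. Its lowest level was 122 CPM in CPC8, its median 327 CPM (497 CPM without CPC3 and CPC10) and its highest level 1468 CPM in CPC6. CPC5 (957 CPM), CPC9 (757 CPM), CPC11 (635 CPM) and CPC7 (626 CPM) followed, while CPC4 and CPC10 were near the bottom at 148 and 161 CPM. The cells high in Cd34 were therefore in part cells low in Ly6a, such as CPC5, CPC9 and CPC11, yet CPC6 was the highest for both genes, and the correlation over the 12 cells was weak (r = -0.13, or -0.46 without CPC6). CPC10, the cell with the endothelial markers, had one of the lower Cd34 levels. The relatives Podxl and Podxl2 were each counted in 7 cells, at 13.5 CPM or less (highest in CPC10) and 8.98 CPM or less.

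Cd44 (chromosome 2, 102811141 to 102901665, minus strand) ran from 141 CPM in CPC10 through a median of 523 CPM to 1452 CPM in CPC5, with CPC8 (1019 CPM) and CPC4 (931 CPM) next. Without CPC3 and CPC10 its highest cell was 5.24 times its lowest, against 10.3 times over all 12 cells. Of 5 genes for ligands of Cd44 or the enzymes that make them, 1 was at 10 CPM or more in every cell (21.5% of all genes were). This was Spp1, which encodes osteopontin and reached 9942 CPM in CPC3, with the next cell at 932 CPM. Has2, a hyaluronan synthase, was counted in 9 cells with 239 CPM in CPC12, Has1 in 3 cells, and Has3 in 2 cells at 0.597 CPM or less. Srgn, the serglycin core protein, was at 150 CPM in CPC10 and at 4.48 CPM or less in the others.

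Eng (chromosome 2, 32646595 to 32682669, plus strand) was present in every cell, and a single cell held most of it. Its lowest level was 60.9 CPM in CPC4, its median 94.9 CPM and its highest level 1911 CPM in CPC10 (10178 counts), which was 59.3% of the sum over the 12 cells and 5.47 times the next cell, CPC3 at 349 CPM. The other 10 cells were close together. They had 96.3 ± 37.4 CPM (SD, 10 cells), with CPC7 the highest at 185 CPM and a ratio of 3.04 between highest and lowest. In CPC10 the endothelial markers Emcn (3322 CPM), Plvap (2579 CPM), Pecam1 (1422 CPM), Esam (1379 CPM) and Cdh5 (694 CPM) stood beside Eng, and their part in its level was not tested. Of 11 genes of receptors, mediators and targets that act with endoglin, 10 were counted in every cell and 6 were at 10 CPM or more in every cell. The shares of all genes were 35.3% and 21.5%. The type I receptor Acvrl1 was at 4.36 to 85.0 CPM (median 28.2 CPM), Tgfbr2 at 14.5 to 128 CPM (median 31.4 CPM) and Bmpr2 at 18.2 to 83.3 CPM (median 54.0 CPM). Tgfbr1 (111 CPM) and Acvr1 (226 CPM) were highest in CPC10. Bmpr2 was lowest in CPC10, at 18.2 CPM, Acvrl1 was at 14.8 CPM and Tgfbr2 at 21.4 CPM there, under their medians. Id3, a target gene of BMP signalling, was also lowest in CPC10, at 565 CPM against a median of 1705 CPM. Other genes of the list were not low there. Id1, which ran from 35.9 to 343 CPM, was at 150 CPM in CPC10 (median 176 CPM). Smad1 was at 48.8 CPM (median 48.4 CPM) and Smad5 at 50.3 CPM (median 32.6 CPM) in that cell.

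The adhesion molecules Alcam and Vcam1 varied in other cells. Alcam (chromosome 16, 52248996 to 52454074, minus strand) had 19.1 CPM in CPC8, a median of 93.1 CPM and 254 CPM in CPC1, with CPC3 (229 CPM) and CPC12 (217 CPM) next and CPC10 low at 22.3 CPM. Vcam1 (chromosome 3, 116109949 to 116129688, minus strand) had 36.4 CPM in CPC3, a median of 111 CPM and 590 CPM in CPC1, followed by CPC7 (394 CPM) and CPC11 (241 CPM). CPC1 was thus the highest cell for both, whereas CPC3 was second for Alcam and lowest for Vcam1. Cd6, the ligand of Alcam on T cells, was at 0 in every cell, L1cam was at 8.18 CPM or less, and the scaffold gene Sdcbp ran from 441 to 1128 CPM. Of the integrin chains that bind Vcam1, Itgb1 was abundant (689 to 2594 CPM, median 1247 CPM), while its partner Itga4 was at 10 CPM or more in 3 cells, up to 53.0 CPM in CPC3, and Itga9 in 8 cells. Msn, a linker of Vcam1 to actin, was at 434 to 1573 CPM.

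The tetraspanins included the steadiest of the markers. Cd81 (chromosome 7, 143052739 to 143067934, plus strand) had 461 CPM in CPC5, a median of 1082 CPM and 1687 CPM in CPC11, a ratio of 3.66. Cd9 (chromosome 6, 125460266 to 125494791, minus strand) had 59.3 CPM in CPC5, a median of 157 CPM and 1162 CPM in CPC3, followed by CPC10 (884 CPM) and CPC6 (435 CPM). CPC5 was the lowest cell for both tetraspanins. Without CPC3 and CPC10, Cd9 was at 168 ± 101 CPM (SD, 10 cells), and its highest cell was 7.34 times the lowest. Of 9 partner genes, 8 were counted in every cell and 6 were at 10 CPM or more in every cell, against 35.3% and 21.5% of all genes. The tetraspanin Cd63 ran from 936 to 2338 CPM, the protease Adam10 from 55.8 to 273 CPM and Igsf8, a direct partner of Cd9 and Cd81, from 39.9 to 146 CPM. Ptgfrn, the other direct partner, was at 0.188 CPM in CPC10 and at up to 71.8 CPM in CPC5.

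Eng and Cd9 were the pair of markers with the highest correlation over the 12 cells, and CPC3 and CPC10 were the 2 highest cells for both. Of 8492 genes with a mean of 10 CPM or more, 18.9% had their highest cell in CPC3 or CPC10, and of the 8 markers at that mean these 2 did, Eng in CPC10 and Cd9 in CPC3. The sequences before the annotated starts of these genes are shown because of this correlation (r = 0.77, rho 0.41), which was 0.27 without CPC3 and CPC10, with Cd81 as the family member that varied little. They are RefSeq promoter windows of build GRCm38.p6, which 7 of the 10 markers had in the table used, trimmed to end at the base before the annotated gene start and read 5′ to 3′ on the strand of the gene. The windows lie at chr2:32646345-32646594 (plus strand, Eng), chr6:125494792-125495010 (minus strand, Cd9) and chr7:143052500-143052738 (plus strand, Cd81), and capitals mark GC boxes.
Eng: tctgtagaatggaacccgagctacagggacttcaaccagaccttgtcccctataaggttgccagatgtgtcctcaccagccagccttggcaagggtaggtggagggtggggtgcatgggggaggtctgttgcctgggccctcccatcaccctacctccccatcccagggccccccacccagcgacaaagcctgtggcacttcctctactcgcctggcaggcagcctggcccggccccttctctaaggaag
Cd9: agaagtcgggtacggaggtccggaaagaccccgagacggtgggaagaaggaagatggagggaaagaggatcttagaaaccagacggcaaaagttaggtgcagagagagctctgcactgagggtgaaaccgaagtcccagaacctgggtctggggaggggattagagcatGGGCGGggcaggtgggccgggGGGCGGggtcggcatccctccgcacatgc
Cd81: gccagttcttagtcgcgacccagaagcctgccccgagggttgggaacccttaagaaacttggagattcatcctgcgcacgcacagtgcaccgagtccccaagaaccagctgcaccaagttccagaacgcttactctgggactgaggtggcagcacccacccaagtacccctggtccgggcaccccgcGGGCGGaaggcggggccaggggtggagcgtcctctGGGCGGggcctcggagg
The motifs searched on both strands were the GC box (GGGCGG), the TATA box (TATAAA) and the CCAAT box (CCAAT), with no overlap between matches. The Cd9 and Cd81 windows each held 2 GC boxes and the Eng window none, and none of the 3 windows held a TATA box or a CCAAT box. A GC box was found in 33.0%, 28.5% and 31.4% of 32544 distinct promoter sequences in windows of 250, 219 and 239 bases, the lengths for Eng, Cd9 and Cd81. For the longest window the shares were 12.3% for the TATA box and 33.8% for the CCAAT box. The matches are descriptions of letters only. The Cd9 window overlaps an exon of Gm26728, which lies on the opposite strand and also overlaps 10.7% of the Cd9 exons. Overlaps on the other strand covered 3.61% of the exons of Cd81 (R74862), 2.03% of Cd34 (Gm16897), 1.51% of Eng (Fpgs) and 0.688% of Vcam1 (Gm43109), and reads there cannot be told apart because the strand rule of the counting was not given.

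Co-occurrence was read first at the level of 10 CPM. Each cell held 7 to 9 of the 10 markers, with a median of 8, and the cells fell into 4 combinations. All markers but Thy1 and Nt5e, and only those, were present in 8 cells (CPC1, CPC2, CPC3, CPC4, CPC7, CPC8, CPC9 and CPC12). CPC5 and CPC6 held the same 8 with Thy1, CPC10 the same 8 with Nt5e, and CPC11 all of the 8 except Ly6a. CPC11 missed Ly6a narrowly, at 8.48 CPM, and CPC10 passed for Nt5e and Ly6a narrowly, at 10.5 CPM each. Of the 45 pairs of markers, 21 were together in every cell, which are the pairs among the 7 markers present throughout. Thy1 and Nt5e were together in 0 cells at 10 CPM, and so were Thy1, Cd44, Eng and Nt5e as a set of 4 (exact binomial interval 0 to 26.5%). With Thy1 present in 2 cells and Nt5e in 1, the absence of this set says little on whether these genes occur together.

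With a single count as the level, 28 pairs were together in every cell, each cell held 8 to 10 markers, and 3 cells (CPC1, CPC6 and CPC10) held all 10. These same cells were the ones with Thy1, Cd44, Eng and Nt5e together (exact binomial interval 5.49 to 57.2%), and all of them had Cd34 too. Thy1 without Nt5e was counted in 5 cells (CPC4, CPC5, CPC7, CPC8 and CPC11), Nt5e without Thy1 in CPC2, and neither in CPC3, CPC9 and CPC12. The combinations thus differed in these 2 genes only, since the other 8 were counted in every cell.

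**Figure D3:**
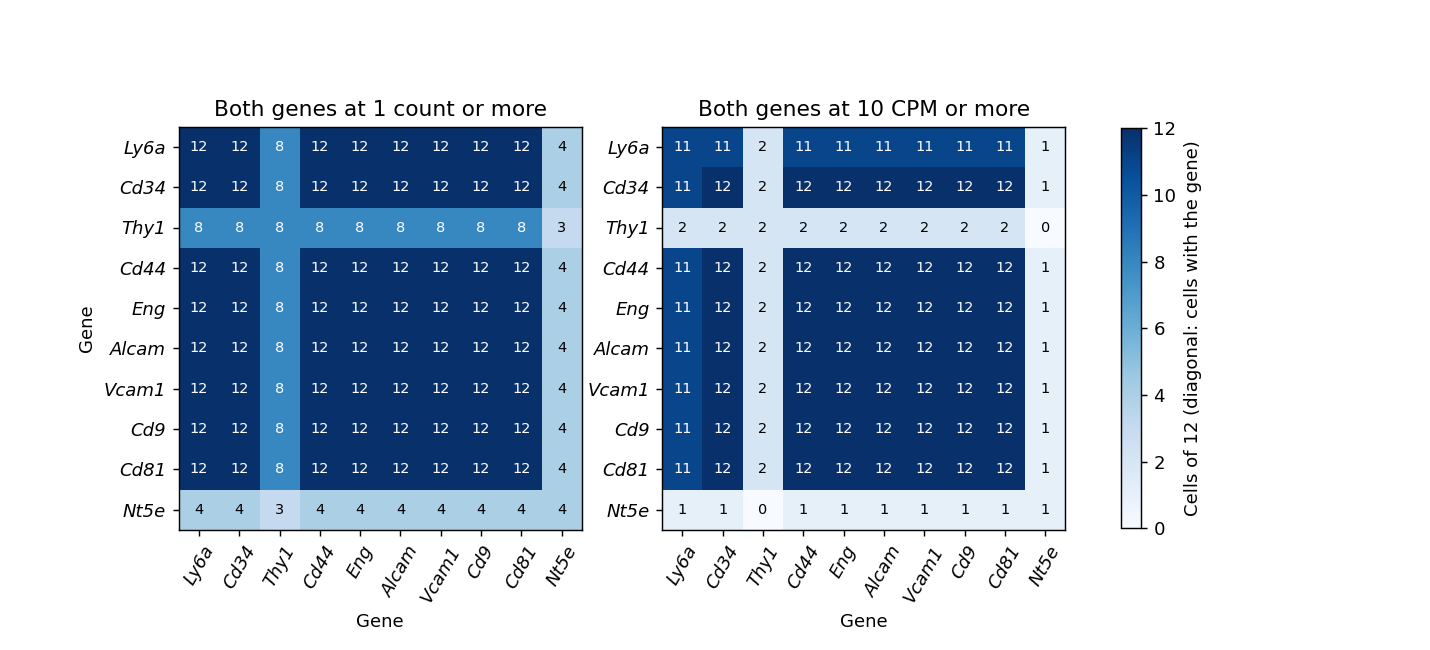
Number of cells, of 12, in which both genes of a pair were found, at 1 count or more (left) and at 10 CPM or more (right), with the number of cells for a single gene on the diagonal. Pairs outside Thy1, Nt5e and Ly6a are together in 12 cells on both sides, and Thy1 with Nt5e goes from 3 cells to 0.

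Higher levels divided the cells further. At 50 CPM or more, 5 markers were in every cell (Cd34, Cd44, Eng, Cd9 and Cd81), where 8.21% of all genes were, 10 pairs were together throughout and 6 combinations occurred, of which the full set of 8 was held by CPC1, CPC6, CPC7 and CPC12. At 100 CPM or more, 3 markers (Cd34, Cd44 and Cd81) and 3 pairs were left in every cell, with 8 combinations, and 4.25% of all genes were in every cell. CPC1, CPC7 and CPC12 still held all 8 at that level. CPC4 and CPC9 held 4 each, namely Cd34, Cd44, Cd9 and Cd81.

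Across the 12 cells the levels of the markers did not run in parallel as a set. Pearson correlations of log2(CPM + 1) over the 45 pairs had a median of 0.02 (0.14 without CPC3 and CPC10), with a range from -0.68 to 0.77. The median was 0.03 over all pairs of 8447 genes with a mean of 10 CPM or more and a count in at least 6 cells. Thy1 (mean 6.27 CPM) and Nt5e (mean 1.33 CPM) are not among these genes, so the sets compared are not alike. The points are 12 cells of 1 culture condition, each from its own library, and no p is given. Eng and Cd9 had r = 0.77 (Spearman's rho 0.41), which fell to 0.27 over 10 cells without CPC3 and CPC10. Cd44 and Eng ran in opposite directions with r = -0.68 (rho -0.37), which was -0.28 without CPC10 alone, -0.76 without CPC3 alone and -0.56 without both. Cd44 and Cd9 had r = -0.53, which was -0.28 without CPC10 alone, -0.79 without CPC3 alone and -0.58 without both, so these cells moved it in opposite directions. The tetraspanins Cd9 and Cd81 had r = 0.54, or 0.47 without the 2 cells. Some pairs had a higher r without them. Ly6a and Eng went from r = 0.02 to 0.61 (0.67 without CPC10 alone), and Eng and Vcam1 from -0.18 to 0.66, over the 10 cells.

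**Figure D4:**
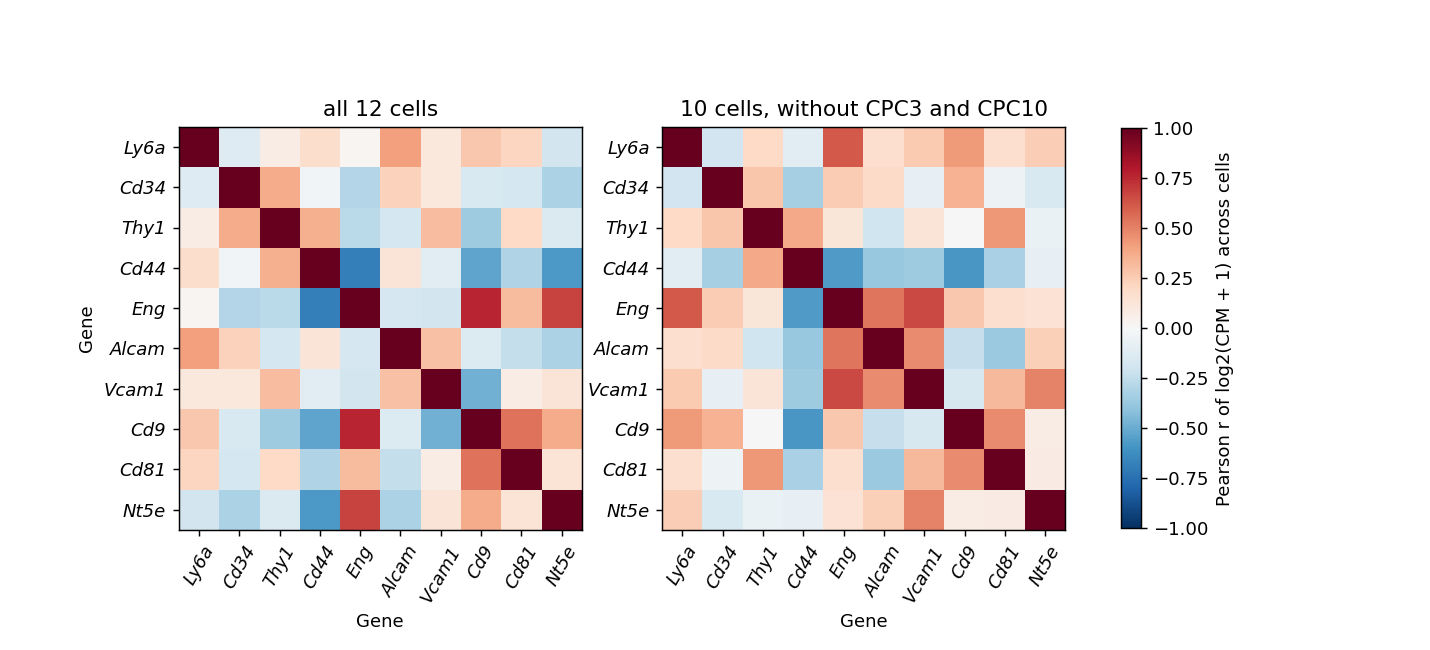
Pearson r of log2(CPM + 1) between each pair of surface markers, over all 12 cells (left) and over 10 cells without CPC3 and CPC10 (right), from blue for negative to red for positive values. Eng with Cd9 pales from 0.77 to 0.27, while Cd44 with Cd9 goes from -0.53 to -0.58.

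Relatives of Ly6a were compared with it next. Of 6 genes of the Ly6 family, Ly6e was at 10 CPM or more in every cell, Ly6c1 in 5 cells, Ly6c2 and Ly6d in none, and Ly6k and Ly6h were at 0 in every cell. Ly6e (chromosome 15, 74955051 to 74959905, plus strand), 34972 bases from Ly6a, ran from 117 to 1092 CPM with a median of 271 CPM, and its r with Ly6a was 0.75 (rho 0.75), or 0.74 over 10 cells. Ly6c1 (chromosome 15, 75044018 to 75048830, minus strand), 45987 bases away on the other side, ran from 0 to 314 CPM with a median of 7.66 CPM, and had r = 0.77 (rho 0.65), or 0.80 over 10 cells. Both were highest in CPC3. Of the 8446 other genes ranked, 16 had an r with Ly6a at or above that of Ly6e and 9 at or above that of Ly6c1, counting these genes themselves. Genes outside the family were as close, among them the tetraspanin gene Cd82 (r = 0.77), with Cd47 at 0.68. Genes of the Ly6 family share sequence, and with uniquely mapped reads their counts and those of Ly6a are uncertain. The gene most like Ly6a among the 8447 was no relative. Tspo, which encodes a protein of the outer mitochondrial membrane, had r = 0.89 (rho 0.96) and kept the first place over 10 cells with r = 0.91, although its range was only 549 to 1654 CPM.

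**Figure D5:**
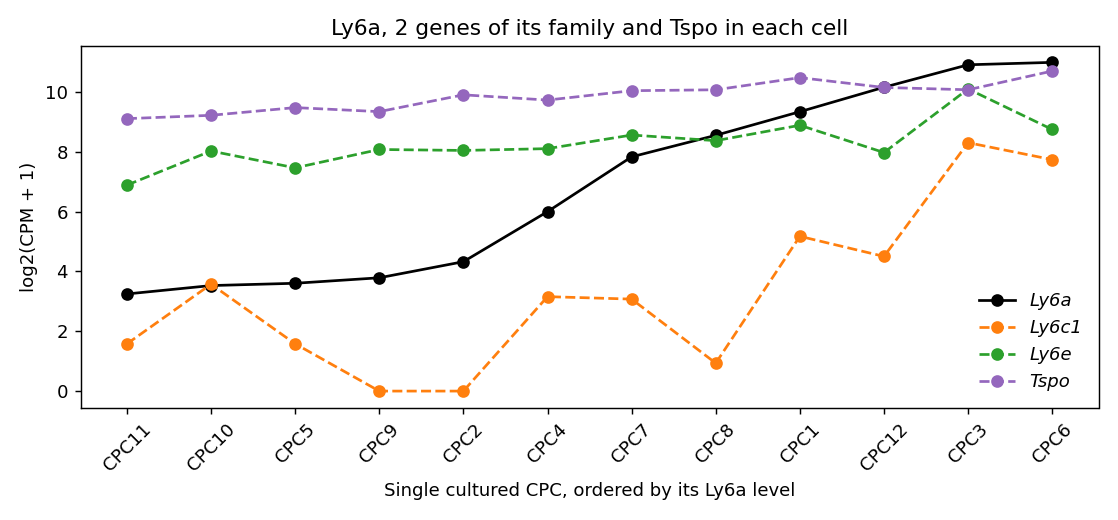
Levels of Ly6a, Ly6c1, Ly6e and Tspo in log2(CPM + 1) in each cell, with the cells ordered by Ly6a. Ly6a climbs from 8.48 CPM in CPC11 to 2023 CPM in CPC6, with Tspo moving over a much narrower range and Ly6c1 at 0 in CPC9 and CPC2.

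For the other markers, the genes with the most similar pattern over the 12 cells were taken from the same 8447 genes, by the highest r. Cd34 was followed by Itm2a (r = 0.89), a membrane protein gene that was also first over 10 cells with r = 0.95, and then by Tbcel and Ift46. The nearest to Eng were Lrig1 (0.94), the endothelial cadherin Cdh5 (0.93) and Pecam1 (0.92), which dropped to places 421, 546 and 228 without CPC3 and CPC10. Cd9 had Retsat (0.82), Nit2 (0.80) and Tefm (0.80), of which Tefm was still within the first 10. Cd44 had Zfp672 (0.90), the calcium-binding protein gene S100a4 (0.89) and Selenot (0.89), and Cd81 had Creb3 (0.88), Mov10 (0.84) and Txndc15 (0.82). Alcam had Idh1 (0.87), the nuclear receptor Nr4a2 (0.86) and Dlg1 (0.86), and Vcam1 had Mtch1 (0.85), Akr7a5 (0.85) and the nuclear receptor Nr4a1 (0.84). Without CPC3 and CPC10, Nr4a2 fell to place 19 and Nr4a1 to place 11, while Idh1, Dlg1, Mtch1 and Akr7a5 stayed within the first 10. Thy1 had Shisa4 (0.84), Wasf2 (0.83) and Atoh8 (0.83), and the first gene for Nt5e was Frmd4b (0.93). The values for Thy1 and Nt5e rest on few counts. After Tspo, Ly6a had Qpctl (0.87) and Sppl2a (0.83). The 12 points were ranked over 8447 candidates, and the first gene had r = 0.82 or more for every one of the 10 markers.

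Of 16 other surface genes of stromal cells, 9 were counted in every cell, against 35.3% of all genes. At 10 CPM or more in every cell were 6 of them, against 21.5% of all genes: Itgb1, Cd63, Cd151, Cd47, Sdc4 and Bst2. Pdgfra was counted in every cell and reached 10 CPM in 9, with 0.247 CPM as its lowest level and 276 CPM as its highest in CPC3. Pdgfrb reached 10 CPM in 10 cells, up to 87.5 CPM in CPC12. Icam1, an adhesion molecule related to Vcam1, was at 725 CPM in CPC10 and at 2.13 CPM or less in the other cells, and Mcam (137 CPM), Cd200 (562 CPM) and Cd151 (446 CPM) were highest in CPC10 too. Ngfr was at 0 in every cell, while Anpep, Cspg4 and Dpp4 stayed under 10 CPM, with highest levels of 6.37, 2.13 and 2.16 CPM. Bst2 was highest in CPC3 (834 CPM), followed by CPC7 (647 CPM), and lowest in CPC1 (16.2 CPM). Both CPC3 and CPC1 were among the cells high in Ly6a, and the r of Bst2 with Ly6a was 0.38.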

How the data were processed

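Single cultured CPCs were lysed and copied to cDNA with the Clontech Smart-Seq v4 kit, and libraries were made with Nextera XT. Per the submitters' processing notes, STAR 2.5.2b and the mouse genome mm10 were used, and per the methods only uniquely mapped reads were kept. The counting program, gene annotation and strand rule are not given in the sources used here. The authors deposited a table of whole-number read counts for each gene in each cell, which they had not normalized. All 12 columns were matched to cells by name, and 0 columns were left unused.

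Further values were computed from these counts. CPM are counts scaled to a sum of 1000000 in each cell. Presence was 10 CPM or more, logs were log2(CPM + 1), and 0 counts allowed up to 3 counts. Levels per length used the union of exons in GENCODE vM21 (its build, GRCm38, is that of mm10), to which 98.4% of the symbols matched. Promoter sequences were from RefSeq, GRCm38.p6. Exact intervals (binomial, Poisson) had a level of 0.95. No cell failed the filter that the methods give (1000 genes, up to 10% mitochondrial counts), and doublets were not called. The members, the lists of partner genes and markers, and the alternatives were chosen with earlier results of these data known. The named genes were all 10 members, list genes that were highest, lowest or at 0, and the 3 genes most like each member by Pearson r (mean of at least 10 CPM, counted in at least 6 cells); a few of these genes are not reported here. As the 12 cells form 1 sample, no test was made. Scaling, depth (thinning to 3453708 counts), thresholds, lengths, pseudocount, correlation measure and the cells included were varied. The steps were tested on simulated data. Scripts ran under Python 3.11.15 with pandas 2.3.3, numpy 2.4.6 and scipy 1.17.1, and plots were drawn with matplotlib 3.10.9.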

Additional observations from a re-analysis of the deposited data

How the results depend on the processing

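The level that counts as present decided the co-occurrence results. The median number of markers per cell was 8 at 10 CPM, 9 at 1 count, 10 counts or 1 CPM, and 7 at 50 CPM. Thy1, Cd44, Eng and Nt5e were together in 0 cells at 10 CPM, in 3 cells at 1 count, and in 1 cell at 10 counts or at 1 CPM. Pairs together in every cell numbered 21 at 10 CPM and 10 at 50 CPM. Markers with a highest cell at 10 times the lowest or above numbered 7, and 4 without CPC3 and CPC10, in an alternative added after the data had been seen. Leaving out each cell in turn gave 5 to 7 such markers (5 without CPC10, 6 without CPC5, CPC6 or CPC8), 21 to 28 pairs (28 without CPC11), 7 to 8 markers present in every cell, 3 to 4 combinations, 8 to 8 markers as the median per cell, 8 to 8 markers counted in every cell, 0 to 0 cells with the 4 stromal markers, and a median correlation from -0.05 to 0.04, which was 0.14 without CPC3 and CPC10 together. Of the 30 genes named as most like a marker, 11 were kept with Spearman's rho, 18 with the looser filter of a count in 3 cells, and 4 without CPC3 and CPC10. Leaving out any 1 cell moved the median of Ly6a from 144 CPM to 62.8 or 226 CPM, and the medians of the other markers by less than 1.5 times, while that of Cd34 went from 327 to 497 CPM without CPC3 and CPC10 together. No paired analysis was possible because the cells form 1 group. Depth limits statements on Thy1 and Nt5e, whose counts were few, and the 12 cells limit every share.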
